A study of Zea mays with 12 samples.

Results

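Aquaporins are membrane channels for water and small neutral solutes, and their transcripts were followed in maize roots under shortage of potassium, nitrogen or phosphorus. A gene was taken as an aquaporin when its deposited description named it as one, as a membrane intrinsic or membrane integral protein or as a tonoplast intrinsic protein, or when its deposited terms held water channel activity. That rule found 39 of the 37385 genes, 33 by description and 18 by the term, with 12 found both ways. Total RNA from whole roots of 40-day-old Zea mays was sequenced in 12 libraries of 4 groups with 3 libraries each. The groups were potassium (K) deficiency, nitrogen (N) deficiency, phosphorus (P) deficiency and a control supplied with normal levels of all these nutrients. All plants carried the same genotype, DengHai605, which the labels call an inbred line. Libraries of a group are told apart by the labels 1_3, 4_6 and 7_9, and values below follow that order. The labels do not say whether these are separate plants or pools, so every p-value measures the spread between these libraries, which may be technical.

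Plant aquaporins are tetramers in which each monomer forms its own pore, and they set much of the hydraulic conductivity of a root together with the Casparian strip and suberin of its cell walls. Plasma membrane intrinsic proteins (PIPs) carry water across the cell's outer membrane, where maize PIP2 proteins conduct water well and PIP1 proteins reach the membrane largely in tetramers with PIP2 partners. Tonoplast intrinsic proteins (TIPs) line the vacuole. NOD26-like intrinsic proteins (NIPs) include channels for silicic acid, boric acid and arsenite, and small basic intrinsic proteins (SIPs) are found in the endoplasmic reticulum of Arabidopsis.

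Levels are given in FPKM (fragments scaled to transcript length and to the mapped fragments of the library), which allows genes to be compared per length. Tests used limma on log2(FPKM + 1) in 1 fit of all 12 libraries over the 24311 genes with at least 0.5 FPKM in at least 3 libraries. A gene was called higher or lower when its Benjamini-Hochberg adjusted p over those genes was under 0.05, and fold changes are on the log2(FPKM + 1) scale, which understates the change of weakly expressed genes. A change given as a multiple, such as a 1.63-fold rise, is the ratio of the group means in FPKM. Of the 39 aquaporin genes, 34 were tested: all 4 PIP1, 7 PIP2 and 3 SIP genes, 8 of 12 TIP genes, 6 of 7 NIP genes, and 6 genes that carry the water channel term but no aquaporin description. The 5 that were too low to be tested were the tonoplast types tip3b, tip5, cl46210_1 and TIP4-3 and the NIP gene LOC100282312. TIP4-3 was listed at 0 in all 12 libraries. The 3 comparisons with the control use the same control libraries, so they are not independent of each other.

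Under K deficiency 4 aquaporin genes were higher than in the control and 2 were lower. That is 11.8% and 5.88% of the 34 tested, against 4.83% and 3.89% of all tested genes. The genes that rose were pip2b, a plasma membrane water channel, tip4a of the tonoplast, and LOC103642560 and LOC103647293, which have no aquaporin description. LOC103646186 and tip3a fell. The median log2 fold change over the 34 genes was 0.53, against 0.07 over all tested genes.

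Under N deficiency 4 were higher and 4 were lower, each 11.8% of the 34, against 9.63% and 9.33% of all tested genes. The PIP2 gene LOC107648857, the tonoplast gene tip2b, the silicon channel gene NIP2-1 and the undescribed gene LOC109941001 rose. The tonoplast genes tip1, tip3a and tip4b and the undescribed LOC103646186 fell. Their median log2 fold change was 0.09 over the 34 genes and 0.04 over all tested genes.

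Under P deficiency 6 were higher and 5 were lower, or 17.6% and 14.7% of the 34, against 13.0% and 10.4% of all tested genes. The genes that rose were nip2b and NIP2-3 of the NIP group, sbip1b and sbip2a of the SIP group, tip4d of the tonoplast and LOC103642560. The plasma membrane genes pip1f and pip2-5, the tonoplast genes tip3a and tip4b and the undescribed LOC103646186 fell. Median log2 fold changes were -0.01 over the 34 genes and 0.08 over all tested genes. The root hair gene rth3 was lower under P deficiency too, at 57.1 ± 10.1 FPKM against 93.8 ± 12.9 FPKM in the control (SD, n = 3 each; log2 fold change -0.71, adjusted p = 0.0146 in limma), and its part in the aquaporin results was not tested. It averaged 88.8 ± 15.6 FPKM under K deficiency and 72.6 ± 6.05 FPKM under N deficiency and was not called there (adjusted p = 0.812 and 0.176 in limma). The root initiation genes rtcl1 and rtcs1 of the same marker list went the other way under P deficiency and were not called. There rtcl1 averaged 0.723 ± 0.451 FPKM, against 0.136 ± 0.236 FPKM in the control (adjusted p = 0.145 in limma). For rtcs1 these were 1.01 ± 0.0984 and 0.325 ± 0.207 FPKM (SD, n = 3 each; adjusted p = 0.0744 in limma).

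A call in 1 deficiency and not in another is no test of a difference, and the direct tests are given further on.

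**Figure D1:**
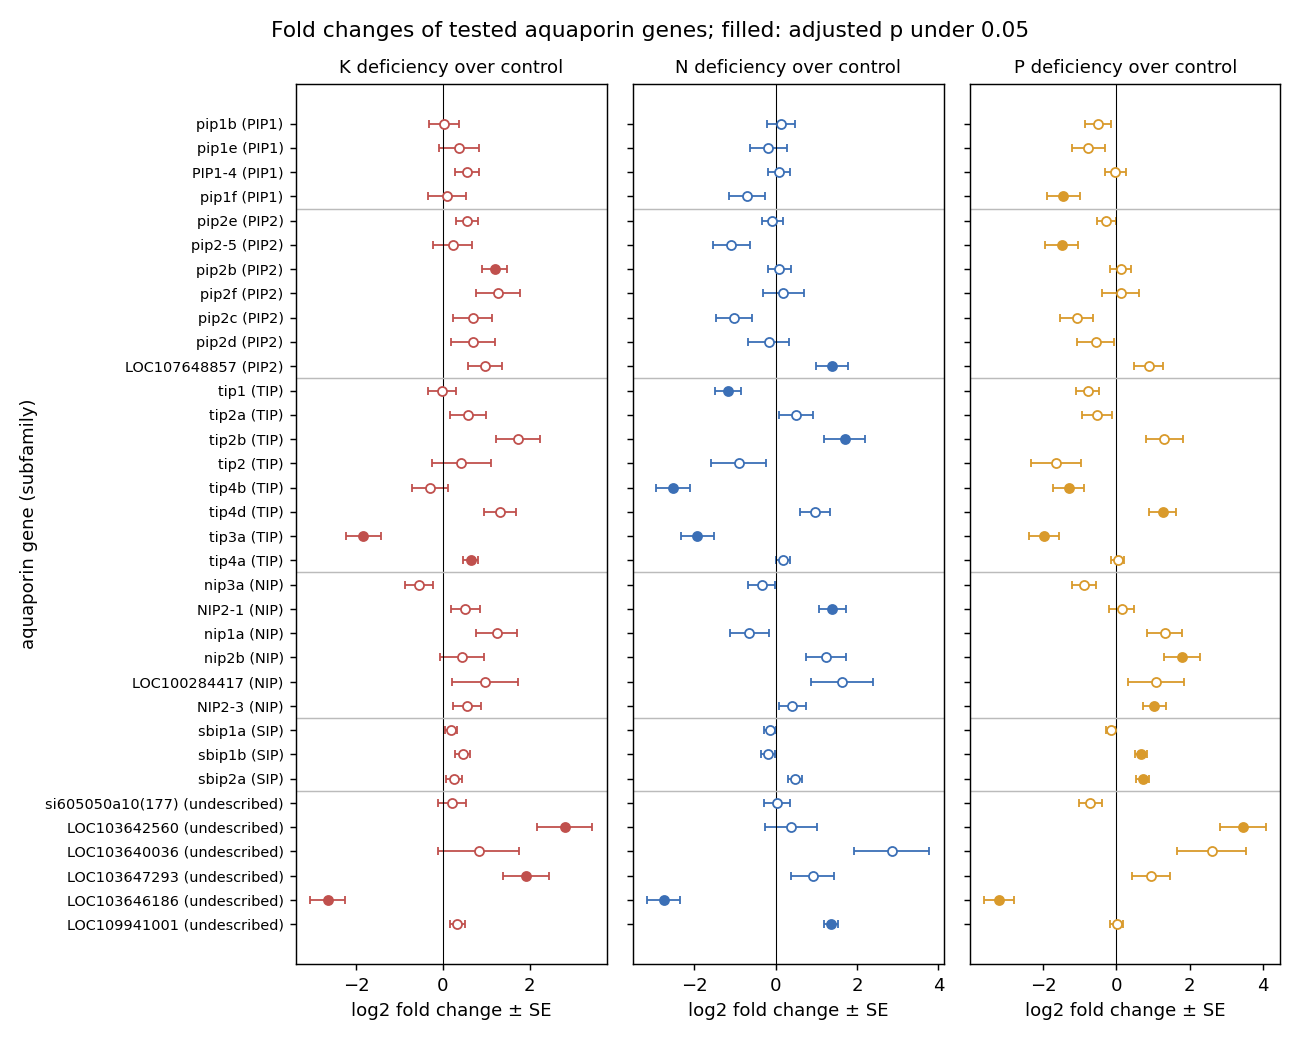
Log2 fold change of each tested aquaporin gene on the log2(FPKM + 1) scale, with its SE, for K, N and P deficiency over the control, grouped by subfamily. Filled points have an adjusted p under 0.05, and all 11 PIP points lie above 0 under K deficiency while 8 of 11 lie below 0 under P deficiency. Of all 24311 tested genes, 14399 lay above 0 under K deficiency and 10492 below 0 under P deficiency.

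Aquaporin transcripts were concentrated in a few genes. Of the 39, 12 had a mean of at least 100 FPKM over the 12 libraries, 11 lay between 10 and 100, 8 between 1 and 10, and 8 under 1. The single most abundant gene, tip1, held 22.9% of the summed aquaporin FPKM. The 6 most abundant genes, tip1, pip2e, pip2-5, tip2a, pip1b and tip2b, held 67.2%, and the leading 10 held 85.9%. All 12 genes above 100 FPKM were PIP or TIP genes, and the sum of all aquaporins ran from 0.579% to 1.96% of all FPKM in a library.

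**Figure D2:**
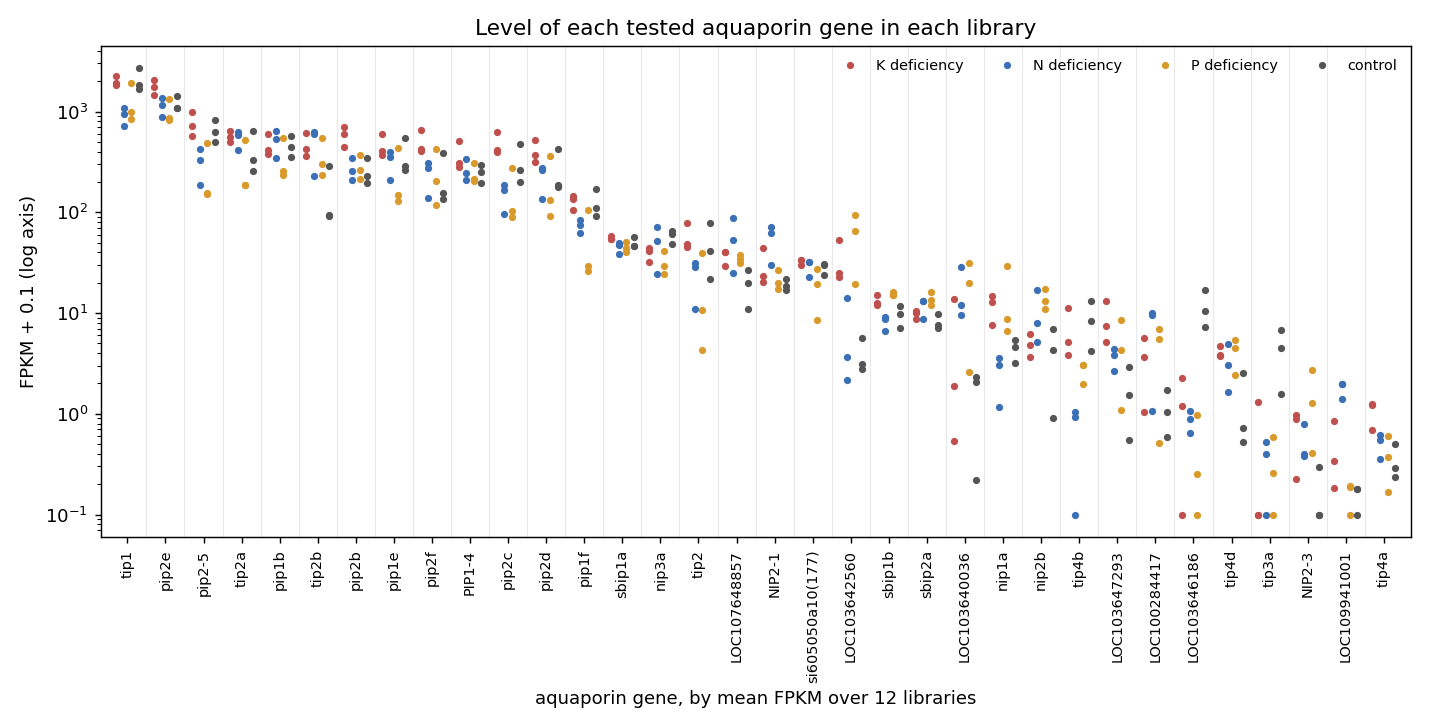
FPKM of each of the 34 tested aquaporin genes in each of the 12 libraries, on a log axis after adding 0.1, ordered by the mean over the 12 libraries. The leading 12 genes, all PIP or TIP genes, average at least 100 FPKM, and several genes to the right are listed at 0 in single libraries.

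The abundant aquaporin genes moved together from library to library within a group. All 13 genes with a mean of at least 50 FPKM were highest in library 1_3 of K deficiency, in 4_6 of P deficiency and in 7_9 of the control. In N deficiency, 11 of the 13 were highest in library 1_3 and all 13 were lowest in 7_9. The median coefficient of variation of these 13 genes within a group was 26.1% under K deficiency, 29.5% under N deficiency, 63.1% under P deficiency and 34.1% in the control. Over the 2364 genes of such a mean it was 12.1%, 14.7%, 16.1% and 19.4% in the same groups. Leaving out 1 library at a time gave 0 to 7 aquaporin genes higher under K deficiency (4 with all libraries). It gave 2 to 9 lower under P deficiency (5 with all libraries). The highest counts came without control library 7_9 and without P deficiency library 4_6. Beyond those fits, the part of this spread between libraries in the results was not tested.

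Read depths recovered from the deposited group means lay between 17056372 and 18181748 reads under K deficiency, 17299244 and 17957009 under N deficiency, 15734464 and 17170310 under P deficiency, and 17843853 and 18465979 in the control. The 3 root hair and root initiation markers summed to 73.2 to 100.2 FPKM under K deficiency, 67.0 to 78.1 under N deficiency, 51.8 to 70.8 under P deficiency and 82.9 to 108 in the control, nearly all of it from rth3. The endodermal genes SCARECROW and SHORT-ROOT 2-like were detected and were not called. Of 24 green shoot marker genes, 18 averaged under 1 FPKM, with sums of 20.03 to 26.3 FPKM under K deficiency, 18.5 to 21.7 under N deficiency, 22.7 to 25.1 under P deficiency and 44.0 to 63.0 in the control. In bulk roots, fewer cells of a type and less RNA per cell cannot be told apart.

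Summed over the 11 PIP genes, the plasma membrane type reached 7460, 4897 and 5444 FPKM under K deficiency, 4395, 3763 and 2504 under N deficiency, 2370, 4687 and 2139 under P deficiency, and 3594, 3247 and 5499 in the control. Summed over the 12 TIP genes, the tonoplast type reached 3608, 2880 and 2828 FPKM under K deficiency, 2331, 2195 and 1380 under N deficiency, 1499, 3037 and 1289 under P deficiency, and 2227, 2166 and 3711 in the control. Each deficiency overlapped the control in both sums. Plasma membrane transcripts exceeded tonoplast transcripts in all 12 libraries. Their ratio was 1.70 to 2.07 under K deficiency and 1.71 to 1.89 under N deficiency, above every control library at 1.48 to 1.61. Under P deficiency the ratio was 1.54 to 1.66, which overlapped the control. The ratio was described and not tested.

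**Figure D3:**
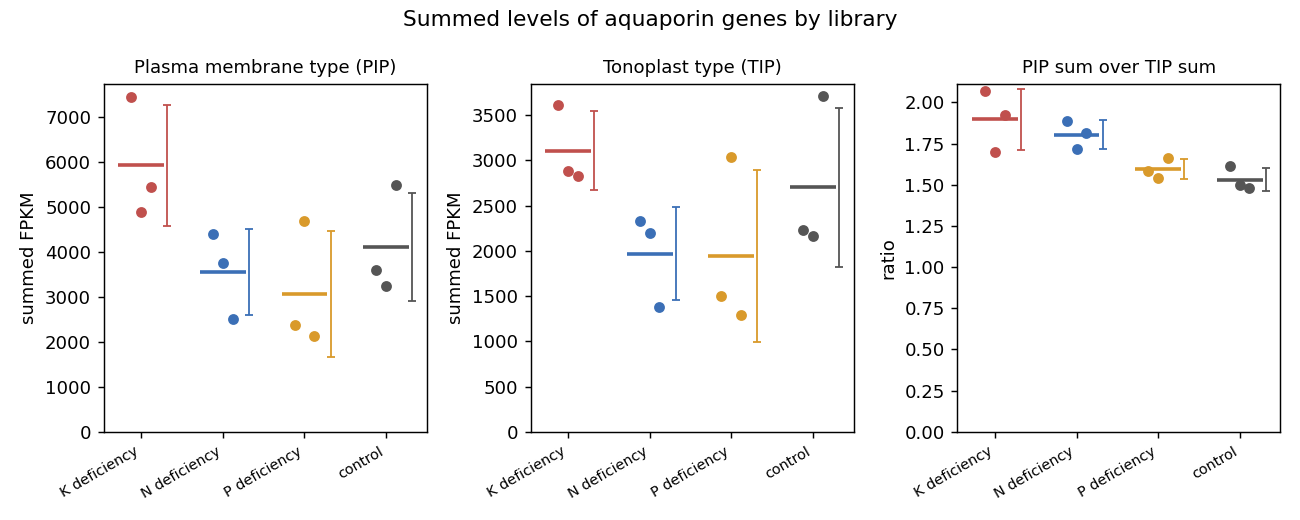
Summed FPKM of the 11 PIP genes and of the 12 TIP genes, and the ratio of both sums, in each library of K deficiency, N deficiency, P deficiency and the control. Points are libraries, horizontal bars are means and vertical bars are SDs of 3 libraries, and the ratio lies above every control library in all K and N deficiency libraries.

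Among the 11 PIP genes 1 rose under K deficiency, 1 rose under N deficiency and 2 fell under P deficiency, and no other PIP gene passed the test. These are 9.09%, 9.09% and 18.2% of the 11. Over all tested genes, 4.83% were higher under K deficiency, 9.63% higher under N deficiency and 10.4% lower under P deficiency. The PIP median log2 fold change was 0.55 under K deficiency, -0.08 under N deficiency and -0.49 under P deficiency. All 11 fitted fold changes were above 0 under K deficiency, 5 of 11 were above 0 under N deficiency, and 3 of 11 under P deficiency. Over the 24311 tested genes, 14399, 13237 and 13819 were above 0 under K, N and P deficiency. Under K deficiency pip1b and pip1f were below 0 with limma's voom on recovered reads (-0.11 and -0.03). They were below 0 in the authors' deposited table too (-0.10 and -0.06). The 11 PIP genes share their libraries and move together within a group, so the counts of directions are not 11 separate observations.

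The most abundant plasma membrane gene was pip2e, listed in RefSeq as PIP2-1. It had 2063, 1453 and 1753 FPKM under K deficiency, 1351, 1168 and 886 under N deficiency, 855, 1342 and 824 under P deficiency and 1077, 1077 and 1432 in the control. The K deficiency libraries were all above the control, while those of N and P deficiency overlapped it. None of its tests passed, with log2 fold change 0.55 ± 0.26 (SE), adjusted p = 0.225 in limma under K deficiency, and adjusted p-values of 0.86 and 0.469 under N and P deficiency.

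The gene pip2-5 encodes a water channel that is abundant in maize roots. It had 989.6, 578 and 719 FPKM under K deficiency, 429, 332 and 184 under N deficiency, 152, 485 and 155 under P deficiency and 619.6, 499 and 826 in the control. All P deficiency libraries were below every control library, although library 4_6 came near, and the N deficiency libraries were all below the control as well. The gene fell under P deficiency (log2 fold change -1.49 ± 0.45 (SE), adjusted p = 0.0349 in limma), where its mean of 264 ± 191 FPKM stood against 648 ± 165 FPKM in the control (SD, n = 3 each). Under N deficiency the log2 fold change of -1.09 did not pass (adjusted p = 0.119 in limma), nor did 0.23 under K deficiency (adjusted p = 0.803). The P deficiency call ended without P deficiency library 1_3 or 7_9 and without any 1 of the control libraries (adjusted p = 0.0522 to 0.122), and also with the replicate labels as a block.

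The gene pip2b, listed as PIP2-2, had 707, 447 and 595 FPKM under K deficiency, 346, 255 and 211 under N deficiency, 261, 367 and 212 under P deficiency and 228, 197 and 346 in the control. Every K deficiency library exceeded every other library in the series. The gene rose 2.27-fold under K deficiency (log2 fold change 1.19 ± 0.28 (SE), adjusted p = 0.0253 in limma), with 583 ± 130.4 FPKM against 257 ± 78.5 FPKM in the control (SD, n = 3 each). Its fold changes under N and P deficiency were 0.09 and 0.13 on the log2 scale, with adjusted p-values of 0.869 and 0.775 in limma. The call under K deficiency ended without K deficiency library 1_3 or 7_9, or control library 1_3 or 4_6 (adjusted p = 0.0777 to 0.0958), at log2 fold changes of 1.02 to 1.17.

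LOC107648857 is described as Aquaporin PIP2-2, the same name that RefSeq gives to pip2b, and was far less abundant. It had 40.0, 29.3 and 40.4 FPKM under K deficiency, 53.5, 87.4 and 24.6 under N deficiency, 37.4, 31.0 and 34.0 under P deficiency and 10.9, 19.9 and 26.5 in the control. The control mean was the lowest of the 4 groups, but N deficiency library 7_9 lay below the highest control library. The gene rose under N deficiency (log2 fold change 1.39 ± 0.40 (SE), adjusted p = 0.0313 in limma), and it averaged 55.2 ± 31.5 FPKM there against 19.1 ± 7.85 FPKM in the control (SD, n = 3 each). Under K and P deficiency all libraries were above the control, yet the tests did not pass (adjusted p = 0.167 and 0.127 in limma). The N deficiency call ended without N deficiency library 1_3 or 4_6, or control library 1_3 or 4_6 (adjusted p = 0.0547 to 0.133), and with the replicate block. How the authors counted reads that fit several PIP genes is not given in the sources used here, so values of near-identical PIP genes are uncertain.

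Other PIP2 genes followed with no call against the control. The gene pip2c, listed as PIP2-3, averaged 480.2 ± 132 FPKM under K deficiency, 149 ± 46.7 under N deficiency, 156 ± 104 under P deficiency and 311 ± 142 in the control (SD, n = 3 each). Its log2 fold changes were 0.68, -1.02 and -1.08 under K, N and P deficiency, with adjusted p-values of 0.395, 0.137 and 0.0975 in limma. The gene pip2f, listed as PIP2-6, is separated from pip2e by 2 genes in the RefSeq annotation of the B73 genome. It averaged 497 ± 142 FPKM under K deficiency, 240.4 ± 88.4 under N deficiency, 249 ± 157 under P deficiency and 225 ± 139.6 in the control (SD, n = 3 each), and its K deficiency log2 fold change of 1.27 carried an SE of 0.50. The gene pip2d, listed as PIP2-4, averaged 401 ± 105 FPKM under K deficiency, 224 ± 76.8 under N deficiency, 196 ± 147 under P deficiency and 263 ± 140.1 in the control (SD, n = 3 each). Under K deficiency the fold changes of pip2c, pip2f and pip2d were above 0 and none passed, with adjusted p of 0.395, 0.154 and 0.448 in limma.

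PIP1 proteins act largely as partners of PIP2 proteins in maize. The most abundant of the 4 was pip1b, listed as PIP1-2, with 593, 413 and 379 FPKM under K deficiency, 646, 532 and 349 under N deficiency, 254, 543 and 232 under P deficiency and 439.5, 356 and 573 in the control. Its groups overlapped throughout, and its log2 fold changes of 0.02, 0.14 and -0.49 under K, N and P deficiency did not pass (adjusted p = 0.984, 0.823 and 0.319 in limma). The only PIP1 gene called was pip1f, which had 146, 106 and 134 FPKM under K deficiency, 83.3, 74.0 and 62.7 under N deficiency, 25.9, 106 and 29.3 under P deficiency and 109, 90.9 and 172 in the control. P deficiency libraries 1_3 and 7_9 were far below the control, while library 4_6 lay inside the control's range. The gene fell under P deficiency (log2 fold change -1.44 ± 0.44 (SE), adjusted p = 0.0361 in limma). That call ended without P deficiency library 1_3 or 7_9, or control library 1_3 or 7_9 (adjusted p = 0.0885 to 0.13), and with the replicate block. The other PIP1 genes were not called, and pip1e averaged 458 ± 121 FPKM under K deficiency, 318 ± 97.0 under N deficiency, 239 ± 172 under P deficiency and 367 ± 158 in the control (SD, n = 3 each). PIP1-4, whose description reads ZmPIP1-3, averaged 369 ± 127 FPKM under K deficiency, 264 ± 68.0 under N deficiency, 243 ± 58.5 under P deficiency and 247 ± 50.2 in the control (SD, n = 3 each).

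Of the 8 tested TIP genes, 1 rose and 1 fell under K deficiency, 1 rose and 3 fell under N deficiency, and 1 rose and 2 fell under P deficiency. Over all tested genes, 4.83% were higher and 3.89% lower under K deficiency, 9.63% and 9.33% under N deficiency, and 13.0% and 10.4% under P deficiency. The TIP median log2 fold changes were 0.50, -0.36 and -0.65 under K, N and P deficiency. The leading tonoplast gene and the leading aquaporin of these roots was tip1, whose product is the water channel TIP1-1 of the vacuole membrane. It had 2266, 1838 and 1917 FPKM under K deficiency, 1084, 938 and 724 under N deficiency, 996, 1932 and 850.0 under P deficiency and 1842, 1689.8 and 2688 in the control. All N deficiency libraries were below every other library except those of P deficiency, where 7_9 and 1_3 overlapped them. The gene fell under N deficiency to 915 ± 181 FPKM, against 2073 ± 538 FPKM in the control (SD, n = 3 each; log2 fold change -1.17 ± 0.32 (SE), adjusted p = 0.0242 in limma). Under K deficiency the log2 fold change was -0.02 (adjusted p = 0.976) and under P deficiency -0.78 (adjusted p = 0.0924). The N deficiency call ended without N deficiency library 4_6 or 7_9, or control library 1_3 or 7_9 (adjusted p = 0.0562 to 0.0755), and under quantile normalization.

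TIP2 proteins carry water and ammonia in Arabidopsis. The gene tip2a, listed as TIP2-1, had 642, 564 and 495 FPKM under K deficiency, 590.5, 620.3 and 410.4 under N deficiency, 187, 516 and 188 under P deficiency and 254, 329.9 and 641 in the control. Its control library 7_9 was as high as the highest deficiency libraries, and no comparison with the control passed (adjusted p = 0.444, 0.446 and 0.382 under K, N and P deficiency in limma). The gene tip2b, listed as TIP2-2, had 605, 421 and 359.7 FPKM under K deficiency, 622, 601 and 231 under N deficiency, 302, 540.0 and 233 under P deficiency and 92.8, 93.1 and 288 in the control. Control libraries 1_3 and 4_6 were below every deficiency library, whereas control library 7_9 overlapped N and P deficiency. The gene rose 3.07-fold under N deficiency (log2 fold change 1.70 ± 0.51 (SE), adjusted p = 0.0374 in limma). Under K deficiency the log2 fold change of 1.73 and under P deficiency that of 1.30 missed the threshold (adjusted p = 0.0589 and 0.0833 in limma). The N deficiency call ended without N deficiency library 1_3 or 4_6, or control library 1_3 or 4_6 (adjusted p = 0.111 to 0.145), and with the replicate block. The gene tip2, which RefSeq lists as TIP1-2 despite its description, varied widely within groups. It averaged 57.4 ± 18.2 FPKM under K deficiency, 23.7 ± 11.2 under N deficiency, 18.1 ± 18.7 under P deficiency and 46.9 ± 28.7 in the control (SD, n = 3 each), and none of its comparisons passed.

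TIP4 genes were low in these roots. The gene tip4b averaged 6.66 ± 3.92 FPKM under K deficiency, 0.593 ± 0.517 under N deficiency, 2.59 ± 0.622 under P deficiency and 8.50 ± 4.52 in the control (SD, n = 3 each). The gene rested on few recovered reads, with 12, 4 and 5 under K deficiency and 14, 4 and 10 in the control. There were 2, 3 and 3 under P deficiency, and no N deficiency library held more than 1 read of tip4b. It fell under N deficiency (log2 fold change -2.52 ± 0.42 (SE), adjusted p = 0.0016 in limma), and every N deficiency library was below every library of the other groups. In the authors' deposited table that change had an adjusted p of 0.0879. It also fell under P deficiency (log2 fold change -1.30 ± 0.42 (SE), adjusted p = 0.044 in limma), but that call ended without any 1 of the P deficiency libraries or without control library 1_3 or 7_9 (adjusted p = 0.0674 to 0.17). The P deficiency call of tip4b ended with voom on recovered reads too (adjusted p = 0.128). The gene tip4d, listed as TIP4-4, averaged 3.99 ± 0.513 FPKM under K deficiency, 3.12 ± 1.65 under N deficiency, 3.99 ± 1.54 under P deficiency and 1.17 ± 1.12 in the control (SD, n = 3 each), and it rose under P deficiency (log2 fold change 1.27 ± 0.37 (SE), adjusted p = 0.0313 in limma) with 1 P deficiency library below the highest control library. That call ended without P deficiency library 1_3 or 4_6, or control library 1_3 or 4_6 (adjusted p = 0.073 to 0.116), and with voom on recovered reads (adjusted p = 0.0526). Under K deficiency tip4d had a log2 fold change of 1.31 that just missed the threshold (adjusted p = 0.0512 in limma). The gene tip4a averaged 0.950 ± 0.319 FPKM under K deficiency, 0.408 ± 0.135 under N deficiency, 0.2801 ± 0.215 under P deficiency and 0.241 ± 0.141 in the control (SD, n = 3 each). Its rise under K deficiency (log2 fold change 0.64 ± 0.17 (SE), adjusted p = 0.0427 in limma) concerned levels of about 1 FPKM or less, and it ended without K deficiency library 1_3 or 7_9, or control library 1_3 or 4_6 (adjusted p = 0.129 to 0.141), or with the replicate block. The call also ended with a pseudocount of 0.1 and with voom on recovered reads (adjusted p = 0.0814 and 0.179). Those reads were 18, 12 and 15 under K deficiency and 3, 5 and 13 in the control. Outside K deficiency only N deficiency library 4_6 reached the filter's 0.5 FPKM, so tip4a entered the test through the group where it was high.

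TIP3 proteins belong to the protein storage vacuoles of seeds in Arabidopsis, and TIP3 transcripts were scarce here. The gene tip3a averaged 0.403 ± 0.698 FPKM under K deficiency, 0.240 ± 0.217 under N deficiency, 0.214 ± 0.247 under P deficiency and 4.17 ± 2.61 in the control (SD, n = 3 each). It fell in all 3 deficiencies, and every deficiency library was below every control library. Outside the control only K deficiency library 7_9 reached the filter's 0.5 FPKM, so tip3a entered the test through the group where it was high. The log2 fold changes were -1.84 ± 0.40 under K deficiency, -1.93 ± 0.40 under N deficiency and -1.96 ± 0.40 under P deficiency (SE). Adjusted p-values in limma were 0.0168, 0.0066 and 0.00682, and the K deficiency call ended without K deficiency library 1_3 or 4_6, or control library 4_6 (adjusted p = 0.0592 to 0.069). The untested tip3b was listed at 0 in all deficiency libraries except N deficiency library 4_6, at 0.144 FPKM, and at 0.569, 0.145 and 0.416 FPKM in the control. By contrast, the untested cl46210_1, described as TIP3.1, averaged 0.753 ± 0.330 FPKM under P deficiency and 0.172 ± 0.00325 FPKM in the control (SD, n = 3 each). The untested tip5, whose relative in Arabidopsis is a pollen gene, averaged 0.572 ± 0.266 FPKM under P deficiency and 0.207 ± 0.0830 FPKM in the control.

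Seed marker genes were also measured, as tissue that a root sample could hold. Of 30 zein, oleosin and globulin genes, 18 were listed at 0 in all 12 libraries and 28 averaged under 1 FPKM. Their summed level was 1.78 to 4.78 FPKM under K deficiency, 2.32 to 4.18 under N deficiency, 3.04 to 3.19 under P deficiency and 31.7 to 68.6 in the control. In the control that sum rested mainly on the 16 kDa oleosin gene, which averaged 1.89 ± 1.08 FPKM under K deficiency, 0.184 ± 0.0820 under N deficiency, 1.12 ± 0.635 under P deficiency and 42.3 ± 18.9 in the control (SD, n = 3 each). Of the 3 seed genes tested, it and ole1 fell in each deficiency, whereas globulin gene glb3 averaged 1.21 ± 0.656, 1.68 ± 0.716 and 1.15 ± 0.447 FPKM under K, N and P deficiency and 0.757 ± 0.340 FPKM in the control and was not called (adjusted p = 0.552, 0.161 and 0.468 in limma). Dehydrins, the desiccation proteins of seeds and of drying tissue, fell in 5 of 7 genes under K deficiency, 5 of 7 under N deficiency and 6 of 7 under P deficiency. Over all tested genes, 3.89%, 9.33% and 10.4% were lower under K, N and P deficiency. The dehydrins summed to 1065 to 1279 FPKM under K deficiency, 767 to 1247 under N deficiency, 887 to 1079.6 under P deficiency and 5623 to 9599 in the control. The part of these genes in the change of tip3a was not tested.

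Among the 6 tested NIP genes none was called under K deficiency in limma, where 1 had an unadjusted p under 0.05, as did 23.4% of all tested genes. Of the 6, 1 rose under N deficiency and 2 rose under P deficiency, against 9.63% and 13.0% of all tested genes. NIP2-1, the maize counterpart of the rice silicic acid influx channel Lsi1, had 43.8, 20.1 and 23.0 FPKM under K deficiency, 71.1, 61.9 and 30.2 under N deficiency, 17.2, 26.9 and 19.7 under P deficiency and 18.3, 16.9 and 21.5 in the control. All N deficiency libraries were above the control, while the P deficiency libraries overlapped it. The gene rose 2.88-fold under N deficiency (log2 fold change 1.39 ± 0.34 (SE), adjusted p = 0.0137 in limma). Its log2 fold change was 0.51 under K deficiency and 0.15 under P deficiency, neither past the threshold (adjusted p = 0.4 and 0.781 in limma). The N deficiency call ended without N deficiency library 1_3 or 4_6 (adjusted p = 0.0568 to 0.0575).

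The gene nip2b, listed as NIP2-2, had 4.67, 3.53 and 6.15 FPKM under K deficiency, 7.80, 17.0 and 5.10 under N deficiency, 17.3, 13.0 and 10.9 under P deficiency and 0.804, 4.15 and 6.92 in the control. All P deficiency libraries were above the control, and N deficiency overlapped it. The gene rose 3.47-fold under P deficiency (log2 fold change 1.79 ± 0.50 (SE), adjusted p = 0.0264 in limma), and the call ended without any 1 of the P deficiency libraries or without control library 1_3 (adjusted p = 0.0505 to 0.0904). The remaining member of this group, NIP2-3, averaged 0.595 ± 0.411 FPKM under K deficiency, 0.427 ± 0.237 under N deficiency, 1.37 ± 1.17 under P deficiency and 0.0666 ± 0.115 in the control (SD, n = 3 each). It rose under P deficiency (log2 fold change 1.04 ± 0.32 (SE), adjusted p = 0.0384 in limma), a call that ended without P deficiency library 1_3 or 7_9 or any 1 of the control libraries (adjusted p = 0.0656 to 0.124) and with the replicate block.

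Of the NIP genes not called against the control, nip3a was the most abundant. It encodes NIP3-1, a boron channel in maize, and averaged 39.3 ± 6.67 FPKM under K deficiency, 49.5 ± 23.7 under N deficiency, 31.6 ± 8.75 under P deficiency and 57.9 ± 8.62 in the control (SD, n = 3 each). Its P deficiency log2 fold change of -0.88 did not pass (adjusted p = 0.0758 in limma). It passed with voom on recovered reads (adjusted p = 0.0374) and in the authors' deposited table (DESeq adjusted p = 0.0116). The gene nip1a averaged 11.7 ± 3.69 FPKM under K deficiency, 2.50 ± 1.28 under N deficiency, 14.8 ± 12.7 under P deficiency and 4.28 ± 1.10 in the control (SD, n = 3 each), with all K and all P deficiency libraries above the control and adjusted p-values of 0.142 and 0.0665 in limma. LOC100284417, described as NIP5.1 after a boric acid channel of Arabidopsis, averaged 3.35 ± 2.33 FPKM under K deficiency, 6.79 ± 5.06 under N deficiency, 4.25 ± 3.40 under P deficiency and 1.02 ± 0.577 in the control (SD, n = 3 each) and overlapped the control in every group.

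None of the 3 SIP genes was called under K or N deficiency. In limma 1 had an unadjusted p under 0.05 in each, as did 23.4% and 32.1% of all tested genes. Against 13.0% of all tested genes, 2 of the 3 SIP genes rose under P deficiency. The most abundant, sbip1a, averaged 55.7 ± 2.10 FPKM under K deficiency, 44.8 ± 5.85 under N deficiency, 44.6 ± 5.22 under P deficiency and 49.4 ± 5.97 in the control (SD, n = 3 each) and was not called. The gene sbip1b, listed as SIP1-2, had 14.9, 12.6 and 11.99 FPKM under K deficiency, 8.70, 8.97 and 6.54 under N deficiency, 15.04, 16.0 and 15.1 under P deficiency and 7.07, 9.57 and 11.7 in the control. All P deficiency libraries were above the control, and so were all K deficiency libraries. The gene rose 1.63-fold under P deficiency (log2 fold change 0.67 ± 0.17 (SE), adjusted p = 0.0187 in limma), while the K deficiency change did not pass (adjusted p = 0.135). The call under P deficiency ended without control library 1_3 and in a fit of only the 6 libraries compared (adjusted p = 0.0785 and 0.0532 in limma). The gene sbip2a, listed as SIP2-1, had 10.5, 9.95 and 8.54 FPKM under K deficiency, 13.2, 13.0 and 8.71 under N deficiency, 16.2, 13.5 and 11.8 under P deficiency and 6.94, 7.48 and 9.63 in the control. It rose 1.73-fold under P deficiency (log2 fold change 0.72 ± 0.18 (SE), adjusted p = 0.0172 in limma) with no overlap with the control, and the call ended without P deficiency library 1_3 or control library 1_3 or 4_6 (adjusted p = 0.0525 to 0.0763). Under N deficiency its log2 fold change was 0.48 (adjusted p = 0.0923 in limma).

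**Figure D4:**
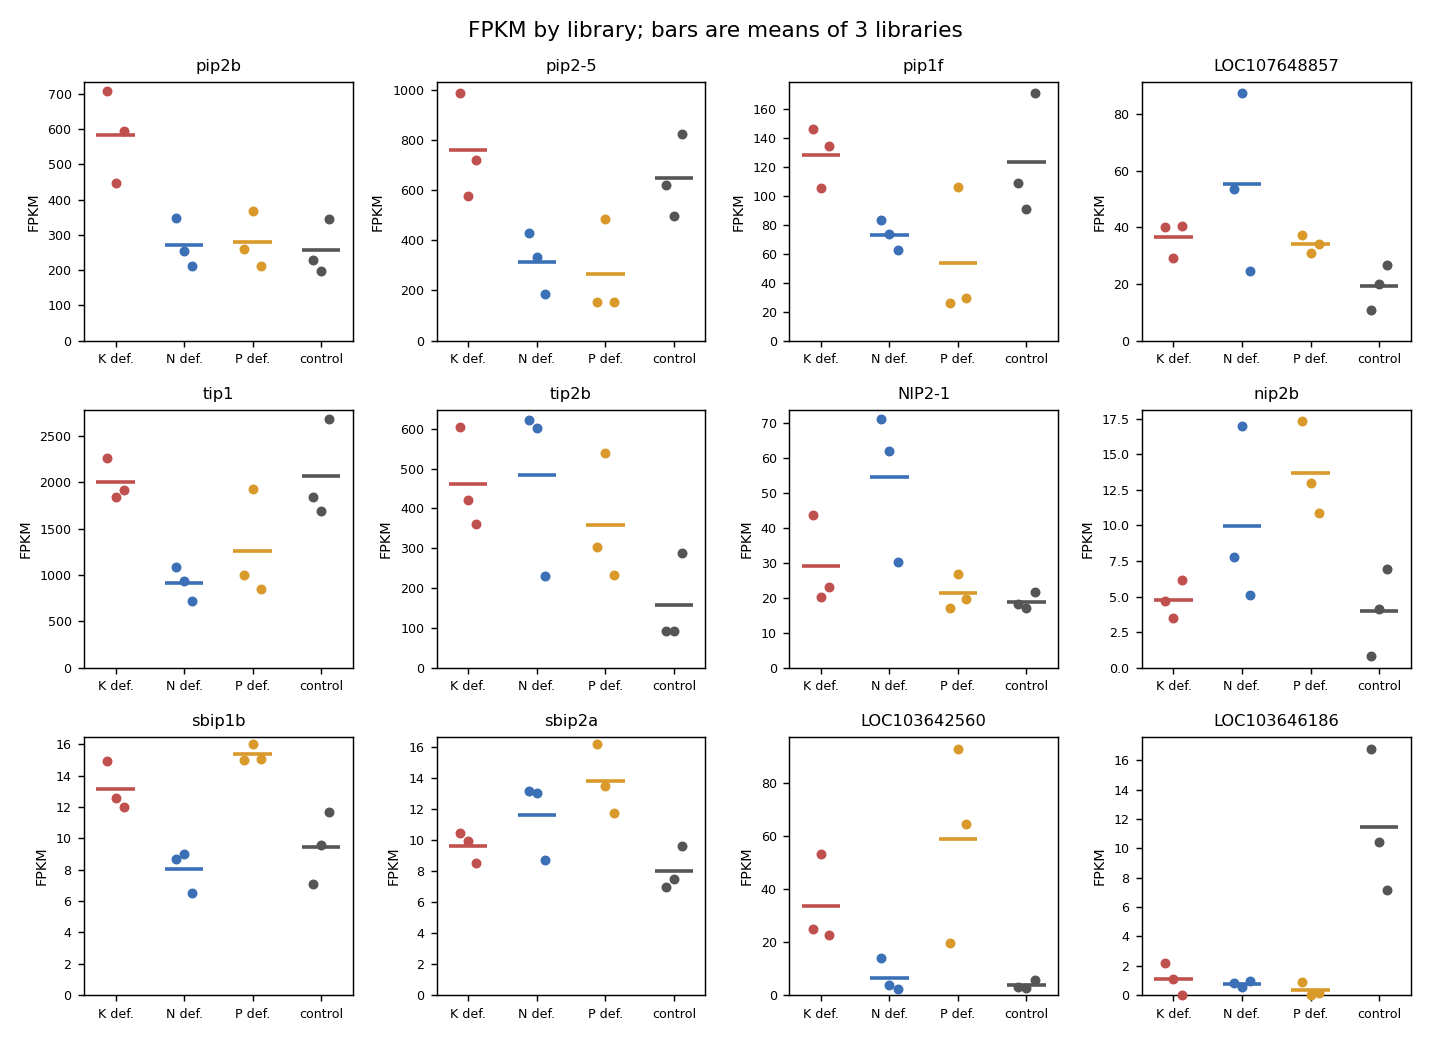
FPKM in each library of 12 aquaporin genes called in at least 1 deficiency, with K deficiency, N deficiency, P deficiency and the control from left to right. Points are libraries and bars are means of 3 libraries, and LOC103646186 lies at 2.15 FPKM or less in every deficiency library and at 7.13 FPKM or more in every control library.

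Another 6 genes carry only the water channel term and no aquaporin description. Of these, 2 rose and 1 fell under K deficiency, and 1 rose and 1 fell under each of N and P deficiency. Over all tested genes, 4.83% were higher and 3.89% lower under K deficiency, 9.63% and 9.33% under N deficiency, and 13.0% and 10.4% under P deficiency. LOC103642560, annotated to the plasma membrane and with a glycerol channel term, had 25.0, 53.3 and 22.6 FPKM under K deficiency, 13.9, 3.59 and 2.04 under N deficiency, 19.5, 92.9 and 64.6 under P deficiency and 2.99, 2.69 and 5.52 in the control. All K and P deficiency libraries were above every control library, and of the N deficiency libraries only 1_3 exceeded the control. The gene rose 15.8-fold under P deficiency (log2 fold change 3.45 ± 0.64 (SE), adjusted p = 0.00386 in limma) and 9.01-fold under K deficiency (log2 fold change 2.81 ± 0.64 (SE), adjusted p = 0.02 in limma). Under N deficiency its log2 fold change was 0.37 (adjusted p = 0.733). The P deficiency call held without each single library, while that under K deficiency ended without K deficiency library 4_6 or control library 1_3 or 4_6 (adjusted p = 0.0651 to 0.0755). The K deficiency call also ended with voom on recovered reads (adjusted p = 0.0823).

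LOC103646186, annotated to the vacuole and its membrane as well as to the plasma membrane, was low in every deficiency. It averaged 1.08 ± 1.08 FPKM under K deficiency, 0.762 ± 0.203 under N deficiency, 0.341 ± 0.466 under P deficiency and 11.4 ± 4.91 in the control (SD, n = 3 each), and no deficiency library reached any control library. Its log2 fold changes were -2.66 ± 0.40, -2.75 ± 0.40 and -3.19 ± 0.40 (SE) under K, N and P deficiency. The adjusted p-values in limma were 0.00223, 0.000724 and 0.000352. In reads recovered from the deposited group means it had 19, 12 and 3 under K deficiency, 8, 7 and 8 under N deficiency, 7, 7 and 1 under P deficiency and 154, 88 and 68 in the control. Its calls held without each single library and under the 17 alternatives run for each comparison. The 16 kDa oleosin gene and most dehydrins, given above with tip3a, were lower in the same groups while glb3 was not, and their part in this result was not tested.

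LOC109941001 was close to 0 outside N deficiency, with averages of 0.354 ± 0.345 FPKM under K deficiency, 1.70 ± 0.335 under N deficiency, 0.0590 ± 0.0512 under P deficiency and 0.0530 ± 0.0460 in the control (SD, n = 3 each). It rose under N deficiency (log2 fold change 1.35 ± 0.17 (SE), adjusted p = 0.000316 in limma), and the call held without each single library. Outside N deficiency only K deficiency library 7_9 reached the filter's 0.5 FPKM. The gene thus entered the test through the group where it was high. Its recovered reads were 26, 18 and 25 under N deficiency and 0, 2 and 1 in the control. LOC103647293, which 9 genes separate from pip2b in the RefSeq annotation, averaged 8.55 ± 4.15 FPKM under K deficiency, 3.52 ± 0.854 under N deficiency, 4.55 ± 3.73 under P deficiency and 1.57 ± 1.18 in the control (SD, n = 3 each). It rose under K deficiency (log2 fold change 1.92 ± 0.52 (SE), adjusted p = 0.0444 in limma), but the call ended without any 1 of the K deficiency libraries or control library 1_3 or 4_6 (adjusted p = 0.054 to 0.153), and with the replicate block. Voom on recovered reads ended that call too (adjusted p = 0.0616). LOC103640036 averaged 5.28 ± 7.24 FPKM under K deficiency, 16.6 ± 10.3 under N deficiency, 17.9 ± 14.5 under P deficiency and 1.43 ± 1.15 in the control (SD, n = 3 each). Its N and P deficiency libraries were all above the control, yet the log2 fold changes of 2.85 and 2.60 missed the threshold (adjusted p = 0.0534 and 0.0639 in limma). The last of the 6, si605050a10(177), averaged 32.3 ± 2.06 FPKM under K deficiency, 28.8 ± 5.24 under N deficiency, 18.3 ± 9.48 under P deficiency and 27.9 ± 3.44 in the control (SD, n = 3 each) and was not called.

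Direct tests between deficiencies asked which aquaporins differed by the nutrient withheld. N deficiency differed from P deficiency in 5 of the 34 genes, or 14.7%, against 11.3% of all tested genes. N deficiency differed from K deficiency in 8, or 23.5%, against 9.81% of all tested genes, and P deficiency from K deficiency in 3, or 8.82%, against 9.23%. LOC109941001 was higher under N deficiency than under P deficiency (log2 difference 1.34 ± 0.17 (SE), adjusted p = 0.000952) and than under K deficiency (log2 difference 1.02 ± 0.17, adjusted p = 0.00405 in limma), at under 2 FPKM in every library. Both of its differences held without each single library, for a gene that passed the filter through its N deficiency libraries. NIP2-1 was higher under N deficiency, at 54.4 ± 21.5 FPKM, than under P deficiency, at 21.3 ± 5.03 FPKM (SD, n = 3 each; log2 difference 1.25 ± 0.34 (SE), adjusted p = 0.0376 in limma). This difference ended without N deficiency library 1_3 or 4_6, or P deficiency library 1_3 or 7_9 (adjusted p = 0.101 to 0.125). The difference of NIP2-1 between N and K deficiency was not called (log2 difference 0.88, adjusted p = 0.133 in limma).

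Set against K deficiency, 3 of the 7 PIP2 genes were lower under N or P deficiency. The gene pip2b was lower under N deficiency (log2 difference -1.11 ± 0.28 (SE), adjusted p = 0.0326 in limma) and under P deficiency (-1.07 ± 0.28, adjusted p = 0.0397). The gene pip2c was lower under N deficiency (-1.71 ± 0.44, adjusted p = 0.0342 in limma) and under P deficiency (-1.77 ± 0.44, adjusted p = 0.0322). The gene pip2-5 was lower under P deficiency than under K deficiency (-1.72 ± 0.45, adjusted p = 0.0373 in limma). In the tonoplast, tip1 (-1.15 ± 0.32, adjusted p = 0.0425) and tip4b (-2.21 ± 0.42, adjusted p = 0.00697 in limma) were lower under N deficiency than under K deficiency. Each of these PIP2 and tip1 differences ended when at least 4 of the 6 libraries compared were left out singly (adjusted p = 0.0585 to 0.139 over them), and with the replicate labels as a block, while that of tip4b held without each library but ended with voom on recovered reads (adjusted p = 0.0578).

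A further 3 genes were lower under N deficiency than under both other shortages. LOC103642560 differed by -3.08 ± 0.64 from P deficiency and by -2.44 ± 0.64 from K deficiency on the log2 scale (SE), with adjusted p of 0.0129 and 0.0348 in limma. The difference from P deficiency ended without library 7_9 of either group (adjusted p = 0.05 to 0.0502), and that from K deficiency without any 1 of the K deficiency libraries or N deficiency library 4_6 or 7_9 (adjusted p = 0.0638 to 0.122). For nip1a the differences were -1.96 ± 0.48 and -1.88 ± 0.48, with adjusted p of 0.0257 and 0.0303 in limma. They ended without N deficiency library 7_9 for P deficiency (adjusted p = 0.09) and without N deficiency library 1_3 or 7_9, or K deficiency library 4_6 or 7_9, for K deficiency (adjusted p = 0.0537 to 0.108). For sbip1b they were -0.86 ± 0.17 and -0.65 ± 0.17, with adjusted p of 0.0109 and 0.0371 in limma. The sbip1b difference between N and P deficiency held without each single library, and the one between N and K deficiency ended without any 1 of the 6 (adjusted p = 0.059 to 0.129). With voom on recovered reads the N and K deficiency differences of all 3 genes ended. The adjusted p was 0.0938 for LOC103642560, 0.065 for nip1a and 0.139 for sbip1b in voom.

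Genes that work beside aquaporins in root water and ion transport are given for comparison. Their counts of calls, here and in the next paragraph, stand beside the shares of all tested genes. Those shares were 4.83% higher and 3.89% lower under K deficiency, 9.63% and 9.33% under N deficiency, and 13.0% and 10.4% under P deficiency. Genes named in both paragraphs are among the 3 of their list with the lowest p in any deficiency in limma. They were thus picked for their change in these data and do not stand for their lists. Plasma membrane proton pumps energise ion uptake, and of 3 tested genes 1 rose under K deficiency and 2 rose under N deficiency. Of these, mha4 averaged 151 ± 3.25 FPKM under K deficiency, 343 ± 31.7 under N deficiency, 118 ± 12.2 under P deficiency and 105 ± 13.9 in the control (SD, n = 3 each), and rose under N deficiency with a log2 fold change of 1.71 (adjusted p = 1.33e-05 in limma). The gene mha2 averaged 371 ± 49.9 FPKM under N deficiency and 151 ± 53.7 FPKM in the control, with a log2 fold change of 1.34 (adjusted p = 0.00151 in limma). Of 26 tested genes for vacuolar proton pumps, which energise the tonoplast, 1 fell under K deficiency and 1 under N deficiency, and 6 rose and 2 fell under P deficiency. The vacuolar pyrophosphatase gene LOC100280334 averaged 27.3 ± 0.963 FPKM under K deficiency, 22.0 ± 3.08 under N deficiency and 20.3 ± 1.33 under P deficiency, against 46.0 ± 2.83 FPKM in the control, with adjusted p-values of 0.00312, 0.000121 and 8.04e-05 in limma. The V-type ATPase subunit E gene pco133385b rose under P deficiency, at 35.9 ± 2.93 FPKM against 18.4 ± 6.02 FPKM in the control (adjusted p = 0.0154 in limma). By contrast, vpp1, described as vacuolar proton pump homolog 1, fell under P deficiency. It averaged 23.6 ± 1.04 FPKM there against 44.6 ± 5.23 FPKM in the control (adjusted p = 0.00195 in limma).

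Genes described as CASP-like belong to a family that also holds the Casparian strip membrane proteins, and not all its members serve that barrier. Of 13 tested, 2 rose and 1 fell under K deficiency, 2 rose and 2 fell under N deficiency, and 1 rose and 4 fell under P deficiency. LOC100278700, described as CASP-like protein 4B1, averaged 7.69 ± 0.352 FPKM under K deficiency, 11.7 ± 1.14 under N deficiency and 8.03 ± 1.38 under P deficiency, against 3.90 ± 1.68 FPKM in the control, and rose in all of them (adjusted p = 0.0271, 0.000865 and 0.0118 in limma). The gene umc2566, described as CASP-like protein 13, averaged 0.377 ± 0.169 FPKM under K deficiency, 0.246 ± 0.198 under N deficiency and 0.135 ± 0.153 under P deficiency, against 3.82 ± 0.467 FPKM in the control, and fell in all of them (adjusted p = 0.000131, 1.5e-05 and 1.53e-05 in limma). Of 6 tested glycerol-3-phosphate acyltransferases and related suberin and cutin enzymes, 1 rose under K deficiency and 1 under N deficiency. LOC100281051 averaged 10.3 ± 1.22 FPKM under N deficiency and 2.61 ± 0.808 FPKM in the control (adjusted p = 0.0013 in limma). 14-3-3 proteins bind phosphorylated membrane proteins, and of 6 tested genes 1 fell under K deficiency, while 1 rose and 1 fell under each of N and P deficiency. The gene that fell throughout, LOC100193401, averaged 62.3 ± 11.4 FPKM under K deficiency, 19.6 ± 2.05 under N deficiency and 23.7 ± 3.62 under P deficiency, against 155 ± 38.6 FPKM in the control. The gene csu614a rose under N deficiency, at 112 ± 12.2 FPKM against 74.5 ± 18.5 FPKM in the control (adjusted p = 0.026 in limma).

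In the authors' deposited tables, 5 aquaporin genes passed an adjusted p of 0.05 under K deficiency, 7 under N deficiency and 7 under P deficiency, against 5.57%, 11.1% and 10.7% of all genes with a deposited p-value there. Of the genes so marked in the authors' deposited tables, 5 in each deficiency were also called by limma on FPKM, where 6, 8 and 11 were called under K, N and P deficiency. Called by limma alone were tip4a under K deficiency (DESeq adjusted p = 0.737) and tip2b, LOC107648857 and tip4b under N deficiency (0.075, 0.199 and 0.0879). Under P deficiency these were pip2-5, pip1f, sbip1b, sbip2a, tip4d and tip4b (0.0527, 0.139, 0.152, 0.0988, 0.19 and 0.458). Marked only by the authors were pip2-5 and LOC103640036 under N deficiency (0.021 and 0.0156) and nip3a and LOC103640036 under P deficiency (0.0116 and 0.0404).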

How the data were processed

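The 12 root libraries fall into 4 groups of 3 by the sample labels. The authors deposited 3 tables that each set 1 deficiency beside the control, with FPKM per library per the file headers. The deposited group means are a signal, read counts that the authors divided by a size factor per library and averaged, and the deposited fold is the ratio of both means with its log2 beside it. The deposited p-values and adjusted p-values come from the authors' DESeq comparison, per the file headers and table names. Which aligner, build and annotation were used, and how reads shared by similar genes were handled, is not given in the sources used here.

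Aquaporin genes, their subfamilies and the 6 comparison lists were chosen with earlier results of these data known. FPKM values were tested with limma 3.58.1 in R 4.3.3, with an intensity trend, on log2(FPKM + 1), a pseudocount of 1, for genes of at least 0.5 FPKM in at least 3 libraries, with group as the only term and Benjamini-Hochberg adjustment over 24311 genes. The test was checked on simulated data in which genes varied independently, with the same spread in all groups. That setting differs from the abundant aquaporin genes here, which moved together and varied most under P deficiency. Whole reads were recovered from the group means for 100% of control genes and 99.9%, 99.96% and 99.9% of genes under K, N and P deficiency, to a tolerance of 5e-10, and were used for depth and for limma's voom. A control search made from 1 table alone matched the solution from 3 tables for 99.9% of genes. Voom called 2504, 5497 and 6838 of 25031 genes under K, N and P deficiency against the control. Values in every library are printed for genes called at least once with a mean of at least 5 FPKM and for the 6 most abundant, and other members are given by group means; single-library values and read counts of lower genes were chosen after their values were seen. Names of genes and their neighbours come from the RefSeq table of assembly Zm-B73-REFERENCE-NAM-5.0, in which 37 of the 39 were found. Alternatives changed the pseudocount to 0.1 or 10, the filter, the scaling, the libraries fitted, the replicate block and the threshold.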

Additional observations from a re-analysis of the deposited data

Results flagged for a closer look

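Each of these genes is listed because the effects of 2 deficiencies on it differed in limma's test of the difference itself (Benjamini-Hochberg adjusted p under 0.05), which cancels the shared control. Between N and P deficiency, the N minus P difference on the log2(FPKM + 1) scale was 1.34 for LOC109941001, 1.25 for NIP2-1, -3.08 for LOC103642560, -1.96 for nip1a and -0.86 for sbip1b. Between N and K deficiency, the N minus K difference was 1.02 for LOC109941001, -2.44 for LOC103642560, -2.21 for tip4b and -1.88 for nip1a. It was -1.71 for pip2c, -1.15 for tip1, -1.11 for pip2b and -0.65 for sbip1b. Between P and K deficiency, the P minus K difference was -1.77 for pip2c, -1.72 for pip2-5 and -1.07 for pip2b. The differences of LOC109941001 were above 0. They concern a gene at under 2 FPKM in every library, which passed the filter through its N deficiency libraries.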

How the results depend on the processing

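No call reversed its direction in its own comparison under the alternatives. Fold changes that were not called could change sign, as for pip1f under K deficiency (0.09 in the main fit, -0.03 in voom). The counts of calls moved as follows. With the replicate block, 2 genes were higher under K deficiency (4 without it), 2 higher under N deficiency (4), 3 lower under P deficiency (5), 3 different between N and K deficiency (8) and 0 different between P and K deficiency (3), where 14 had an unadjusted p under 0.05 in limma and voom called 4. The labels do not say that a number marks shared material: of 18 like-numbered pairs 10 had a correlation over 0.1 (-0.39 to 0.33), and only 4 of the 12 had their best correlation with a library of the same number. With voom on recovered reads, an alternative chosen after seeing the data, 1 gene was higher under K deficiency and 4 differed between N and K deficiency. A fit of only the 6 libraries compared gave 1 lower under K deficiency, and 2 higher and 3 lower under P deficiency. With no filter on low values, 3 were lower under P deficiency and 3 differed between N and K deficiency. A filter at 5 FPKM gave 1 lower under K deficiency and 5 different between P and K deficiency. For that last count median-ratio scaling gave 6 and quantile normalization 5, and most alternatives for the direct tests were added after seeing the data. At an adjusted p of 0.01, K deficiency had 0 higher (10 at an unadjusted p under 0.05) and 1 lower, N deficiency 1 higher, and P deficiency 1 higher and 2 lower. The authors' deposited table had 3 lower under P deficiency.

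Leaving out 1 library at a time gave 0 to 7 higher and 1 to 2 lower under K deficiency, 1 to 6 higher and 3 to 4 lower under N deficiency, and 1 to 6 higher and 2 to 9 lower under P deficiency. It gave 3 to 9 different between N and P deficiency, 2 to 5 between N and K deficiency and 0 to 11 between P and K deficiency. The highest counts came without control library 7_9 (7 higher under K deficiency) and without P deficiency library 4_6 (9 lower, 9 and 11). The counts of 0 came without control library 1_3 or 4_6 under K deficiency, where 6 and 9 had an unadjusted p under 0.05. Between P and K deficiency they came without library 1_3 or 7_9 of either group, where 8 to 14 had an unadjusted p under 0.05. The calls that no alternative ended were those of LOC103646186 in each deficiency, tip3a under N and P deficiency, LOC103642560 under P deficiency and LOC109941001 under N deficiency and in both direct tests. The filter at 5 FPKM removed tip3a and LOC109941001, so that alternative did not test their calls. For the 23 members above 10 FPKM, voom and FPKM fold changes differed by a median of -0.03 (log2), and at most by 1.58 for LOC103640036 under K deficiency. FPKM and reads can part at low levels, where a gene listed at 0 FPKM held up to 7 recovered reads.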
